A study of Mus musculus with 8 samples.

Results

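RNA from the dorsal hippocampus of mice that had received a vector with a hairpin against Acss2 was compared with RNA from mice that had received a control vector. All 8 libraries of the series entered, 4 per vector, and were sorted by the vector in their deposited column names, with training as a covariate. The mice were male C57BL/6J animals of 10 to 12 weeks. The hairpin vector was AAV2/9 with a U6-driven hairpin against Acss2 and a CMV-driven EGFP, and was injected into mice that later trained (2 libraries) or stayed in the home cage (2 libraries). The control vector was AAV2/9 with a CMV-driven EGFP and no hairpin, again with 2 libraries from trained and 2 from home-cage mice. Trained mice explored 3 objects in 3 trials of 6 min, 3 weeks after the injection, and were killed 30 min later. All mice shared the surgery, the isoflurane anaesthesia and the meloxicam given for pain. Because the control vector had no hairpin cassette and a single hairpin was used, the presence of a hairpin and the loss of Acss2 cannot be told apart. CMV and U6 are not promoters of one cell type, and it is not stated in the labels if 1 mouse or several went into a library.

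Acss2 encodes the acetyl-CoA synthetase that turns acetate into acetyl-CoA in the cytosol and the nucleus, where acetyl-CoA is the donor for histone acetylation. Many of the genes that differed between the vectors belong to the interferon response. In that pathway, sensors of foreign RNA or DNA lead to the secretion of interferons, whose receptors act through Jak kinases and factors of the Stat and Irf families on a promoter element called the interferon-stimulated response element. The genes switched on in this way include antiviral effectors, GTPases, chemokines and the machinery that presents peptides on class I histocompatibility molecules, and in the brain they can be expressed by microglia, astrocytes, vessels and neurons.

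The libraries are named here by the ends of their column names. KD.253 and KD.255 came from home-cage and KD.249 and KD.251 from trained mice with the hairpin vector. eGFP.254 and eGFP.268 came from home-cage and eGFP.250 and eGFP.266 from trained mice with the control vector. Depth was uneven: KD.255 held 272456 reads in genes and KD.251 held 1484318, while each of the remaining 6 held between 6537749 and 9863728. The value of 1 read was 15.6 normalized read counts in KD.255 and 2.88 in KD.251, against at most 0.659 elsewhere, and 823 of the 12681 tested genes had no read in KD.255. Transcripts that mark the labelled tissue were abundant throughout. The 22 pyramidal neuron markers summed to between 50364 and 55642 normalized read counts in hairpin libraries and between 49745 and 70390 in control libraries, and the 15 dentate granule markers to between 3904 and 7895 in hairpin and between 4265 and 7203 in control libraries. Choroid plexus and ependyma markers, which belong to the ventricle beside the hippocampus, summed to 602 in KD.253, 684 in KD.255, 480 in KD.249 and 2019 in KD.251. They summed to 15831, 270, 60267 and 819 in eGFP.254, eGFP.268, eGFP.250 and eGFP.266, so that eGFP.250 and eGFP.254 stood apart. Below, 4 values in a row follow these library orders.

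Acss2 (GRCm38, chromosome 2, 155517948 to 155585724, plus strand) had 25.0, 15.6, 25.6 and 57.7 normalized read counts in hairpin libraries, against 58.2, 82.0, 87.4 and 67.5 in control libraries. The normalized ranges were adjacent without overlap, with KD.251 next to the lowest control library. The KD.255 value is 1 read, in a library where a count of 0 allows up to 46.7. The separation and the values that follow rest in part on it. Its ratio of means was 0.420, with an exact two-sided permutation p of 0.0286, the smallest that 4 against 4 libraries allow. Scaled to the reads in genes of each library (CPM), the ranges overlapped, since KD.251 had 13.5 and the lowest control library, eGFP.254, had 13.2. The log2 difference by limma was -1.37 with a 95% interval from -2.11 to -0.62, and its adjusted p over all genes was 0.333. The adjusted p was 0.0835 by edgeR, 0.0144 by DESeq2 and 0.00156 by voom with library quality weights. Of the 8 sets that left out 1 library, edgeR called Acss2 in 1, without KD.251, at a log2 difference of -1.56 (adjusted p = 0.00750). In the other 7 sets the edgeR adjusted p ran from 0.0600 without eGFP.266 to 0.606 without KD.249. KD.251 is the hairpin library highest in Acss2, so the value without it depends on the outcome that was tested. Library KD.251, with 20 reads of Acss2, is thus nearer to the controls than the other hairpin libraries in the targeted transcript, and counts over the gene lists of the immune response are given below with and without it.

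Across all genes, transcripts of the antiviral and antigen presentation programmes were higher with the hairpin vector. limma called 13 genes higher (0.103% of those tested) and 0 lower (0%), at a Benjamini-Hochberg adjusted p under 0.05. At an unadjusted p under 0.05, limma had 390 of the 12681 tested genes higher and 319 lower. At that threshold edgeR had 547 higher and 449 lower, and DESeq2 485 higher and 406 lower. edgeR, run on the reads recovered from the deposited values, called 116 genes higher (0.915%) and 6 lower (0.0473%). DESeq2 called 165 higher (1.3%) and 30 lower (0.237%), and voom with library quality weights called 365 higher (2.88%) and 118 lower (0.931%). The 13 genes of limma were Ccl5, Cxcl10, Ddx60, H2-D1, Ifit1, Ifit2, Ifit3, Ifit3b, Irf7, Oasl2, Rsad2, Slfn8 and Trim30a, and the other 3 tools called each of them as well. Of the 116 genes higher by edgeR, 67 were members of 7 lists on viral defence and class I presentation. All 4 hairpin libraries lay above all 4 control libraries in 92 of the 116, and in 2.28% of all tested genes. The 116 were called on these same libraries, which favours such a separation, so the share of all genes is no equal baseline. The median log2 difference over all tested genes was -0.03. The number called depended on single libraries. limma called 2 genes without KD.253, without KD.249 or without eGFP.254, 1 without eGFP.268 or without eGFP.250, 9 without eGFP.266, 13 without KD.255 and 100 (93 higher, 7 lower) without KD.251. edgeR called 17 without KD.253, 27 without KD.249, 73 without eGFP.268, 84 without eGFP.254 and 238 (217 higher, 21 lower) without KD.251. The column numbers of eGFP.266 and eGFP.268 follow those of the other 6 libraries with a gap, and both are control libraries, so that set and vector cannot be fully told apart. With the first 6 libraries alone limma called none of the 13 genes, whose log2 differences ran from 2.09 to 5.86, against 2.25 to 5.15 with all libraries. edgeR called all 13 there, and 82 of the 116 higher genes. A core of 17 genes was called higher by edgeR in all 8 sets that leave out 1 library, made of the 13 genes above with Gbp7, Irgm1, Pyhin1 and Usp18.

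**Figure D1:**
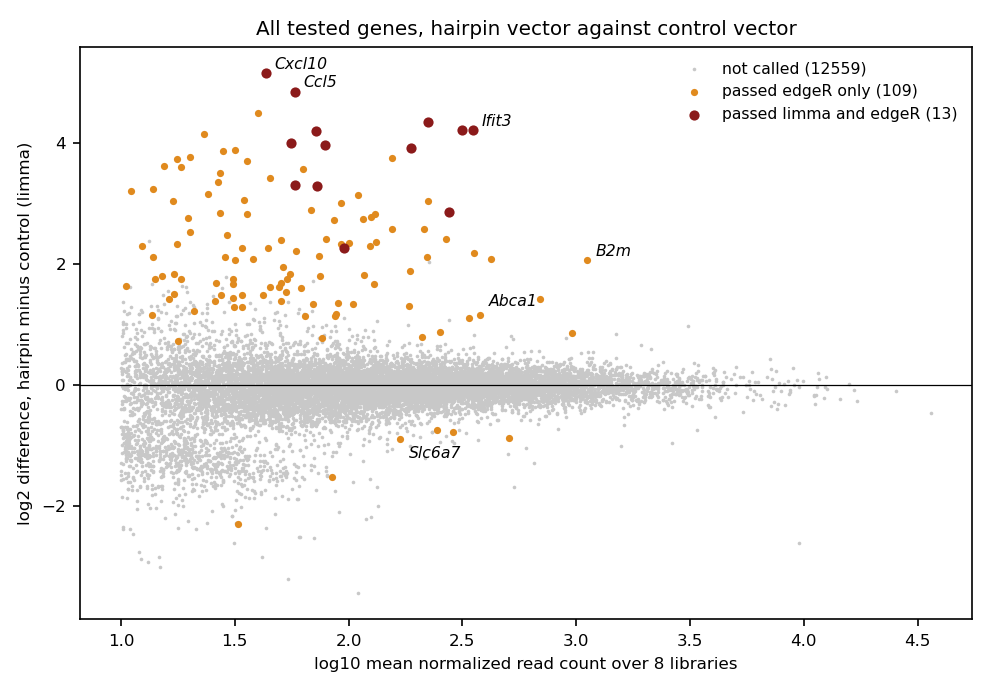
Log2 difference between hairpin and control libraries (limma, vertical axis) against the log10 mean normalized read count over 8 libraries (horizontal axis) for the 12681 tested genes. Dark points passed limma and edgeR (13), orange points passed edgeR only (109), and called genes lie mostly above 0.

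Chemokines held the gene with the smallest p. Ccl5, which attracts T cells and monocytes, had 107, 109, 129 and 110 normalized read counts in hairpin libraries, against 5.23, 3.10, 1.55 and 2.87 in control libraries. The groups were far apart, and KD.251 was as high as the other hairpin libraries. Ccl5 rose by 4.84 on the log2 scale (SE 0.37, limma adjusted p = 0.00213). In each set that left out 1 library, limma called it again. Cxcl10, a ligand of the T-cell receptor Cxcr3, had 70.5, 140, 107 and 23.1 in hairpin libraries, against 0, 2.22, 0.517 and 2.39 in control libraries, with no overlap (5.15, SE 0.72, limma adjusted p = 0.0336). Its control values rest on 0 to 5 reads per library. Cxcl9, another Cxcr3 ligand, had 75.8, 31.1, 52.2 and 0 in hairpin against 0.582, 0, 0 and 1.44 in control libraries, and passed edgeR (adjusted p = 0.00504) but not limma (adjusted p = 0.814). Ccl12 was the fourth chemokine that edgeR called, out of 12 tested of 25 listed, against 0.915% of all tested genes. The median of the 12 was 0.19 by limma and 1.13 by edgeR. The 4 called had control means from 0.504 to 3.19, under the filter mean of 10. They were thus tested only because of their hairpin values, which favours a high called share and median. Ccl27a, a chemokine best known from skin, had 29.0, 31.1, 33.3 and 26.0 in hairpin against 48.3, 45.7, 34.1 and 45.9 in control libraries, and did not pass (edgeR adjusted p = 0.665). edgeR called 2 of the 12 without KD.253 or without KD.249, and 5 without KD.251.

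Sensors of viral nucleic acid differed among themselves. Of 16 tested, edgeR called 4 higher and 0 lower, against 0.915% and 0.0473% of all tested genes. limma called none of the 16 (median 0.72, against -0.03 over all genes). Ifih1, which binds long double-stranded RNA, had 207, 171, 210 and 43.3 in hairpin libraries, against 19.8, 26.6, 36.2 and 24.4 in control libraries, without overlap (2.32, SE 0.47, edgeR adjusted p = 0.00573). Ddx58, the sensor of short RNA with a 5′ triphosphate, had 277, 358, 257 and 31.7 in hairpin against 30.8, 29.3, 39.3 and 30.6 in control libraries. Its KD.251 value lay among the controls, while the other 3 hairpin libraries were several-fold above them (edgeR adjusted p = 0.0102). Ifi204, a sensor of DNA, had 96.9, 46.7, 125 and 5.77 in hairpin against 4.07, 2.22, 0.517 and 4.78 in control libraries (edgeR adjusted p = 0.00504). Tlr3, the endosomal receptor for double-stranded RNA, had 177, 140, 137 and 133 in hairpin against 79.7, 86.0, 95.7 and 75.6 in control libraries, with no overlap, KD.251 included, and just missed the threshold of edgeR (0.79, SE 0.17, adjusted p = 0.0522). edgeR called none of the 16 without KD.253 or without KD.249, and 8 without KD.251.

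Among the factors that carry the interferon signal, edgeR called 3 of 15 tested Irf, Stat and NF-kappaB genes higher (median 0.49). Irf7 and Irf9 were among the 3. Of all tested genes edgeR called 0.915% higher. Irf7, which amplifies interferon production, had 195, 187, 186 and 34.6 in hairpin libraries, against 8.72, 7.98, 5.69 and 6.22 in control libraries. KD.251 was lower than the other hairpin libraries and above all controls (3.96, SE 0.48, limma adjusted p = 0.0210). Irf9, the DNA-binding member of the ISGF3 complex, had 261, 187, 259 and 95.2 in hairpin against 64.0, 39.9, 69.8 and 64.1 in control libraries (1.66, SE 0.34, edgeR adjusted p = 0.00862). The vectors did not overlap. Stat2, another member of that complex, had 507, 373, 500 and 162 in hairpin against 187, 159, 148 and 175 in control libraries, so that KD.251 overlapped the controls, and it missed the threshold (edgeR adjusted p = 0.0540). edgeR called 1 of the 15 without KD.253 or without KD.249, and 8 without KD.251. Of 10 interferon receptor, Jak kinase and feedback genes, edgeR called 1, Usp18, the protease that removes Isg15 and dampens the receptor. It had 63.3, 77.8, 59.9 and 14.4 in hairpin against 4.07, 1.33, 2.07 and 1.91 in control libraries (3.86, SE 0.61, limma adjusted p = 0.0761, edgeR 0.000888). The receptor chain Ifngr1 had 101, 93.3, 135 and 83.7 in hairpin against 73.9, 61.6, 71.9 and 80.4 in control libraries, and the kinase Jak2 had 305, 373, 369 and 349 in hairpin against 230, 263, 340 and 319 in control libraries, and neither passed limma or edgeR. The median of the 10 was 0.23.

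Antiviral effectors had a median of 2.81 by limma and 3.07 by edgeR over 24 tested genes, out of 30 listed. edgeR called 16 of the 24 higher and limma 6, against 0.915% and 0.103% of all tested genes. Some members, Rsad2 and Mx1 among them, had control means under the filter mean of 10 (5.46 and 2.07). They were thus tested only because of their hairpin values, which favours a high called share and median. Ifit3, of the Ifit family that binds foreign RNA, had 768, 622, 1023 and 268.3 normalized read counts in hairpin libraries, against 32.0, 27.5, 21.7 and 51.2 in control libraries (4.21, SE 0.40, limma adjusted p = 0.00866). Ifit1 had 525, 358, 703 and 124 in hairpin against 26.8, 10.2, 10.3 and 27.3 in control libraries (4.34, SE 0.54, limma adjusted p = 0.0210). In both genes KD.251 was the lowest hairpin library and still well above the highest control. Rsad2, the enzyme viperin that makes a chain-terminating nucleotide, had 142, 62.2, 165 and 57.7 in hairpin against 3.49, 7.10, 3.10 and 8.13 in control libraries (limma SE 0.48 and adjusted p = 0.0210, edgeR log2 difference 4.42). Oasl2, of the oligoadenylate synthetase family, had 1029, 373, 872 and 144 in hairpin against 37.2, 13.7, 19.1 and 35.4 in control libraries (4.21, SE 0.58, limma adjusted p = 0.0336). The range over hairpin libraries was thus wider than for Ccl5, with KD.251 again lowest. edgeR called 6 of the 24 without KD.253, 9 without KD.249 and 22 without KD.251. The Ifit genes are close copies of each other, so the split of reads among them is uncertain. T and NK cell transcripts, 21 genes that were all below the filter of a mean of 10, moved with these groups. They summed to 99.5, 140, 96.2 and 11.5 in hairpin libraries, against 8.14, 11.5, 14.5 and 12.4 in control libraries (352 reads in hairpin and 94 in control libraries, with 4 of the 21 at 0 in every control library, among them Cd8a and Cxcr3). In KD.251 their sum, at 4 reads, lay in the control range. The sum of 140 in KD.255 also rests on few reads, since 1 read there is 15.6 normalized read counts. The part of T and NK cell transcripts in the results above was not tested. In whole tissue, more cells of a type and more RNA per cell cannot be told apart.

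Promoter windows of 6 of these genes are shown because they hold the core letters of the interferon-stimulated response element, and because the genes moved together. Each runs 5′ to 3′ on the strand of its gene, from 250 bases before to 50 bases after the annotated start (RefSeq, GRCm38.p6), with matches to the letters GAAA, any 2 bases, GAAA on either strand in capitals. The windows are chr4:156200769-156201068 (minus strand) for Isg15, chr19:34640639-34640938 (plus) for Ifit1, chr19:34583279-34583578 (plus) for Ifit3, chr12:26456403-26456702 (minus) for Rsad2, chr5:92348840-92349139 (minus) for Cxcl10 and chr8:61927837-61928136 (plus) for Ddx60.
Isg15: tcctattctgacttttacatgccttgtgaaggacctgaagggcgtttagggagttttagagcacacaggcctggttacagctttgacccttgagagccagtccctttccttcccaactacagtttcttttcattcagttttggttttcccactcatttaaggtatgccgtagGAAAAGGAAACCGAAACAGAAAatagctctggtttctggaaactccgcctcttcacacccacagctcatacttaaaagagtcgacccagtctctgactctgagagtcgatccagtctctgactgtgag
Ifit1: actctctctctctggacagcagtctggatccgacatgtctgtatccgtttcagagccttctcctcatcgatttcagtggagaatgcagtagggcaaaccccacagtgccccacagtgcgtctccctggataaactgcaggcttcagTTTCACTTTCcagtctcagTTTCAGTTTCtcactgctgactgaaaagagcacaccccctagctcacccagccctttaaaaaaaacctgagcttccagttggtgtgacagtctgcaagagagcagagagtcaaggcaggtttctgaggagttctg
Ifit3: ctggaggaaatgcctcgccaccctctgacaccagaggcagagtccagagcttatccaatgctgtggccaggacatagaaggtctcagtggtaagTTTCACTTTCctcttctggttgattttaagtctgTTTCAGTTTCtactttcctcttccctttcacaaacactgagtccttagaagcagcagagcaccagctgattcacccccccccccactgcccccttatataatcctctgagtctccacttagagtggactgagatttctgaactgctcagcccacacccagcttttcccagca
Rsad2: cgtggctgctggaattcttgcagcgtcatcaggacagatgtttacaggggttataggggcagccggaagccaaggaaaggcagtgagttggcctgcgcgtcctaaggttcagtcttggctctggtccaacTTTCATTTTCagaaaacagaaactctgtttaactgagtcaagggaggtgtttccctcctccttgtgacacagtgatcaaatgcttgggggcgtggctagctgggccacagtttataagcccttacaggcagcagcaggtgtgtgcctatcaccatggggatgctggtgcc
Cxcl10: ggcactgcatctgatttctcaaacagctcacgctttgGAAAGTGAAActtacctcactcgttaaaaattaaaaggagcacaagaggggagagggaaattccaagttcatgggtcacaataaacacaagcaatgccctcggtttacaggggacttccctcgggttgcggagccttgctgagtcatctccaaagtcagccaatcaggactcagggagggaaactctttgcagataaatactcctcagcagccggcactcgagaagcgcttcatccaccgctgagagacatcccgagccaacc
Ddx60: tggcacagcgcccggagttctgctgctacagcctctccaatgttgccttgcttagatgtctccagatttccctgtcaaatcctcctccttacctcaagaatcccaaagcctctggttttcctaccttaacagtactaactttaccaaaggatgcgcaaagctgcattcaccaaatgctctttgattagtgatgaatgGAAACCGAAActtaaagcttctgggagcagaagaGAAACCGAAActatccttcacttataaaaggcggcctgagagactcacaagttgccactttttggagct
In Isg15 there were 3 overlapping matches, beginning 78, 72 and 66 bases before the start. In Ifit1, Ifit3 and Ddx60 there were 2 each, and in Rsad2 and Cxcl10 there was 1. Of the 116 genes higher by edgeR, 80 had a promoter in the table, and 35 of these (43.8%) held at least 1 match, against 3.99% of all 27025 genes with a promoter and 3.68% of the 9762 tested genes with one. Of the genes called by limma, 8 of the 12 with a promoter held a match, and those of Irf7, H2-D1, Ifit2 and Oasl2 did not. The letters TTCNNNGAA, bound by Stat dimers, were in 12 of the 80 promoters (against 9.55% of all promoters), and the NF-kappaB letters GGGA, any 2 bases, TTCC in 7 (8.75%, against 1.63%). A match describes letters in this window and shows no binding.

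**Figure D2:**
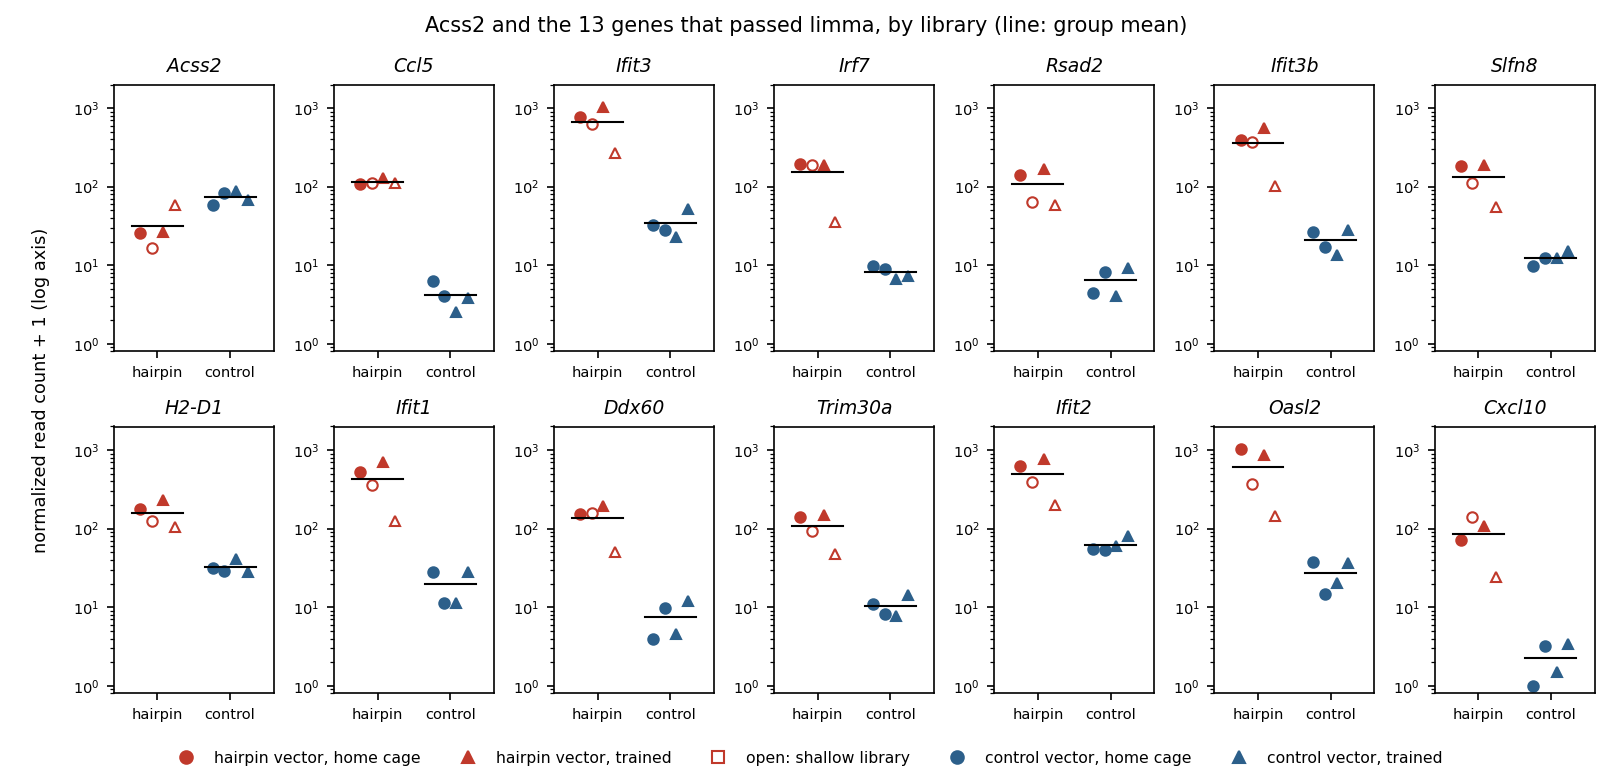
Normalized read count + 1 (log axis) of Acss2 and the 13 genes that passed limma, in each hairpin (left, red) and control (right, blue) library, with circles for home-cage and triangles for trained mice, open symbols for the shallow libraries KD.255 and KD.251, and a line at the group mean. In each of the 13 genes all hairpin points lie above all control points, with Ccl5 the gene in which the trained shallow library is level with the rest.

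Isg15 is a ubiquitin-like protein that its conjugation machinery attaches to viral and host proteins. Of 6 tested genes of this list edgeR called 5 higher, against 0.915% of all tested genes (median 2.05). Isg15 (chromosome 4, 156199424 to 156200818, minus strand) had 139, 62.2, 343 and 11.5 in hairpin libraries, against 5.82, 2.22, 0.517 and 9.57 in control libraries. KD.251, at 4 reads, was barely above the highest control, and the other 3 were far above (4.18, SE 0.99, edgeR adjusted p = 0.00671, limma 0.296). The ligases Herc6 and Trim25 had 237, 280, 284 and 51.9 in hairpin against 26.2, 36.8, 39.3 and 41.6 in control libraries, and 135, 124, 145 and 66.3 in hairpin against 37.2, 21.7, 38.8 and 31.6 in control libraries (edgeR adjusted p = 0.00650 and 0.00504). edgeR called 1 of the 6 without KD.253 or without KD.249, and that 1 was Usp18, while without KD.251 it called all 6.

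Interferon-induced GTPases coat and disrupt vacuoles of intracellular pathogens. Of 15 tested members, out of 21 listed, edgeR called 14 higher and limma none, against 0.915% and 0.103% of all tested genes. The median was 2.71 by limma and 3.26 by edgeR. Some members, Gbp10 and Gbp6 among them, had control means under the filter mean of 10 (0.889 and 8.61). They were thus tested only because of their hairpin values, which favours a high called share and median. Gbp7 (chromosome 3, 142530342 to 142550149, plus strand) had 505, 342, 515 and 136 in hairpin libraries, against 64.6, 43.0, 60.5 and 55.0 in control libraries (2.57, SE 0.38, limma adjusted p = 0.0525, edgeR 0.00203). Irgm1 had 355, 373, 280 and 80.8 in hairpin against 34.3, 50.1, 42.9 and 29.7 in control libraries (2.58, SE 0.39, limma adjusted p = 0.0525, edgeR 0.00220). Both missed limma's threshold narrowly with no overlap between the vectors. Gbp3 differed by 3.03 and Igtp by 2.88, with edgeR adjusted p of 0.00479 and 0.00258, and all 9 promoters found for these GTPases held the response element letters given above. Gbp and Irg genes lie in clusters of similar sequence, so reads may be split among neighbours. edgeR called 2 of the 15 without KD.253, 4 without KD.249 and all 15 without KD.251.

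Restriction factors that act inside infected cells had 22 of 22 tested members with a positive difference, against 44.3% of all genes, and edgeR called 15 of them and limma 3 (median 1.62). Some members, Ddx60 and Trim30a among them, had control means under the filter mean of 10. They were thus tested only because of their hairpin values, which favours positive differences, a high called share and a high median. The share of all genes is therefore no equal baseline. Slfn8, of the Schlafen family, had 184, 109, 186 and 54.8 in hairpin libraries, against 8.72, 11.5, 11.4 and 14.4 in control libraries (3.29, SE 0.41, limma adjusted p = 0.0210). Trim30a had 142, 93.3, 146 and 46.2 in hairpin against 9.89, 7.10, 6.72 and 13.4 in control libraries (3.31, SE 0.42, limma adjusted p = 0.0210). Ddx60, a helicase that assists RNA sensing, had 152, 156, 193 and 49.0 in hairpin against 2.91, 8.87, 3.62 and 11 in control libraries (4.18, SE 0.53, limma adjusted p = 0.0210). Dtx3l, an E3 ligase that pairs with Parp9, had 190, 202, 261 and 86.5 in hairpin against 45.4, 45.7, 42.4 and 60.3 in control libraries (1.82, SE 0.32, edgeR adjusted p = 0.00544). No library of either vector overlapped in these 4 genes. edgeR called 3 of the 22 without KD.253 or without KD.249, 7 without eGFP.268 and 19 without KD.251.

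**Figure D3:**
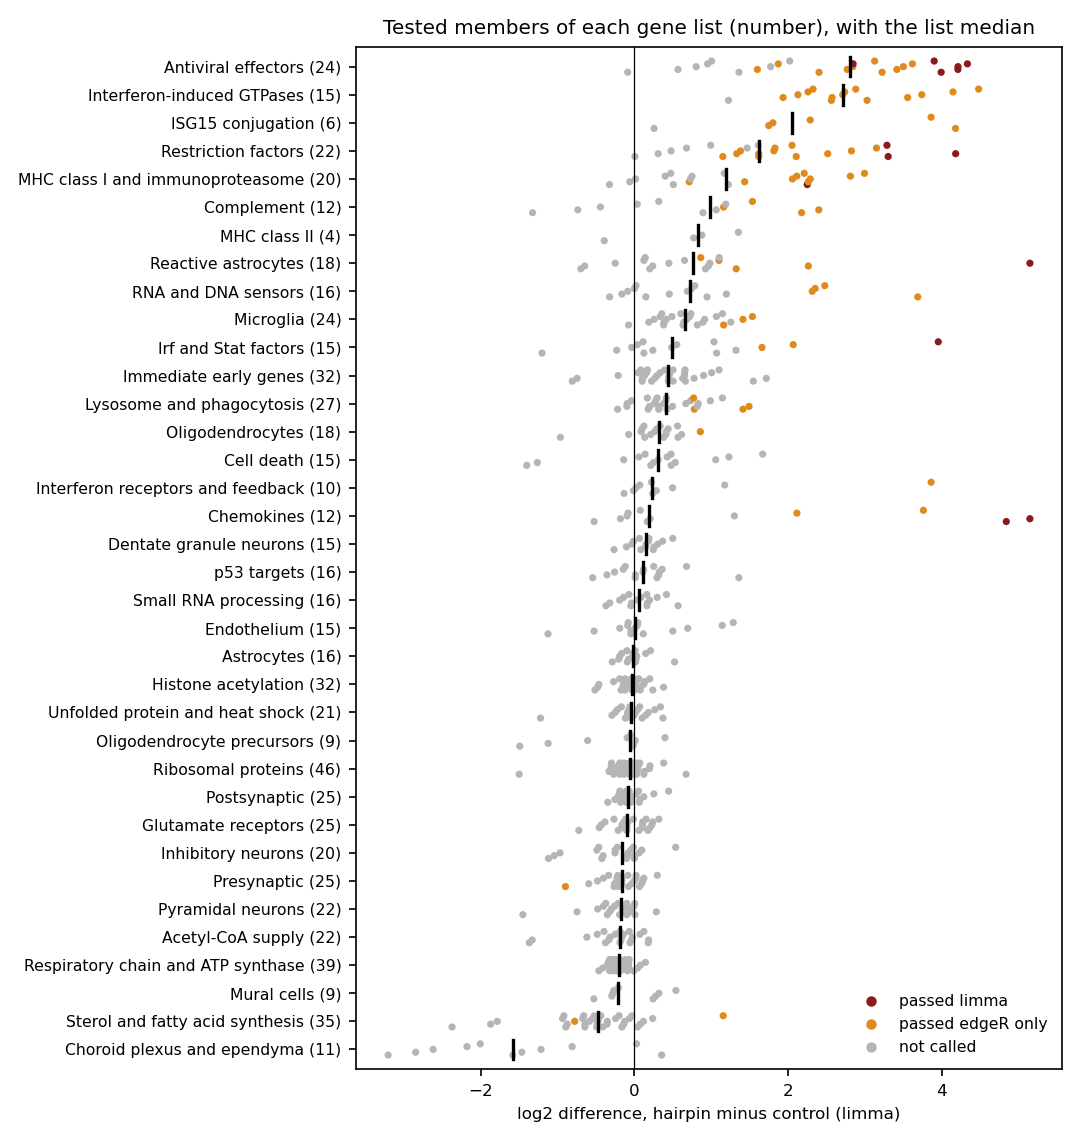
Log2 difference between hairpin and control libraries (limma, horizontal axis) of every tested member of each gene list (number of members in brackets), with the list median as a black bar, coloured by whether the gene passed limma, edgeR only or neither. Medians run from 2.81 for antiviral effectors to -1.58 for choroid plexus and ependyma markers, and called genes are concentrated in the upper lists.

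Class I antigen presentation had 10 of 20 tested members called higher by edgeR and 1, H2-D1, by limma (median 1.198). Of all tested genes these tools called 0.915% and 0.103% higher. H2-D1, a class I heavy chain, had 177, 124, 232 and 104 in hairpin libraries, against 30.2, 27.9, 40.3 and 27.3 in control libraries (2.25, SE 0.28, limma adjusted p = 0.0210). B2m, the light chain, had 2923, 1166, 2675 and 638 in hairpin against 492, 274, 289 and 491 in control libraries (2.06, SE 0.46, edgeR adjusted p = 0.0175). The 2 genes differed in the trained shallow library, where H2-D1 was 2.57 times and B2m 1.30 times the highest control. Nlrc5, the activator of class I genes, had 127, 31.1, 85.5 and 17.3 in hairpin against 6.40, 7.54, 4.14 and 7.18 in control libraries (edgeR adjusted p = 0.00258), and the immunoproteasome subunit Psmb8 had 81.7, 31.1, 93.1 and 26.0 in hairpin against 10.5, 8.87, 13.4 and 6.70 in control libraries (edgeR adjusted p = 0.00479). Class II genes, which mark professional antigen-presenting cells, had 4 tested members and none called by limma, edgeR or DESeq2. At an unadjusted p under 0.05 these tools had 0, 3 and 2 of them, all higher. With voom 3 were called higher, against 2.88% of all tested genes. Cd74 had 123, 15.6, 93.1 and 5.77 in hairpin against 16.9, 4.44, 27.4 and 10.0 in control libraries, high in the deep hairpin libraries and within the control range in the shallow ones. Class I heavy chains are similar in sequence, and the assignment of reads among them is uncertain. edgeR called 1 of the 20 class I genes without KD.253, 2 without KD.249, 5 without eGFP.268, 6 without eGFP.254 and 15 without KD.251.

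Microglia, the resident macrophages of the brain, had 23 of 24 tested markers with a positive difference, against 44.3% of all tested genes (median 0.67). Of the 24, edgeR called 3 higher and limma none, against 0.915% and 0.103% of all tested genes. Ctss, a lysosomal protease of microglia, had 1263, 918, 1294 and 594 in hairpin libraries, against 309, 407, 367 and 379 in control libraries (1.42, SE 0.24, edgeR adjusted p = 0.00573). C1qa, a subunit of the complement protein that tags synapses, had 94.9, 109, 81.4 and 37.5 in hairpin against 30.2, 30.6, 23.8 and 18.2 in control libraries (1.54, SE 0.29, edgeR adjusted p = 0.00650). Neither gene overlapped between the vectors. The homeostatic markers P2ry12, Tmem119 and Sall1 had log2 differences of 0.19, 0.38 and 0.39, smaller than that of the activation marker Cd68 (1.15), and none of these 4 passed limma or edgeR. They were chosen after their values were seen. All 25 microglia genes together summed to 4911, 4215, 4468 and 2815 in hairpin libraries, against 2391, 2400, 2225 and 2085 in control libraries. edgeR called 0 of the 24 without KD.253 and 1 without KD.249, but 8 without KD.251.

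Complement genes had 4 of 12 called higher by edgeR, against 0.915% of all tested genes (median 0.98). C4b had 873, 358, 975 and 193 in hairpin libraries, against 106, 115, 85.8 and 130 in control libraries, without overlap (2.18, SE 0.46, edgeR adjusted p = 0.00667). C3, the central component that the C3 convertase cleaves, had 227, 31.1, 246 and 51.9 in hairpin against 14.0, 7.98, 33.6 and 25.4 in control libraries, with KD.255 inside the control range at 2 reads (edgeR adjusted p = 0.00901). edgeR called none of the 12 without KD.253 or without KD.249 and 6 without KD.251. Reactive astrocyte genes had 5 of 18 called higher by edgeR and 1, Cxcl10, by limma (median 0.76). Of all tested genes these tools called 0.915% and 0.103% higher. Gfap, the intermediate filament that rises in reactive astrocytes, had 4875, 4090, 5387 and 2282 in hairpin against 2209, 1886, 1797 and 2264 in control libraries, with KD.251 next to the highest control, and did not pass limma or edgeR (0.96, SE 0.24, edgeR adjusted p = 0.0627). Osmr, the oncostatin M receptor, had 127, 109, 95.7 and 69.2 in hairpin against 32.6, 46.6, 34.1 and 42.1 in control libraries and passed edgeR (1.33, SE 0.23, adjusted p = 0.00849). edgeR called 1 of the 18 without KD.253 or without KD.249, 3 without any of eGFP.254, eGFP.268 and eGFP.266, and 8 without KD.251. Markers of astrocyte identity had a median of -0.02 over 16 genes. None was called by limma, edgeR or DESeq2 (1 higher by each at an unadjusted p under 0.05). With voom 1 of the 16 markers was called higher, against 2.88% of all tested genes. Among them Aldoc differed by -0.29 (95% interval -0.63 to 0.06) and Aqp4 by 0.52 (SE 0.16), neither of which passed limma or edgeR.

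**Figure D4:**
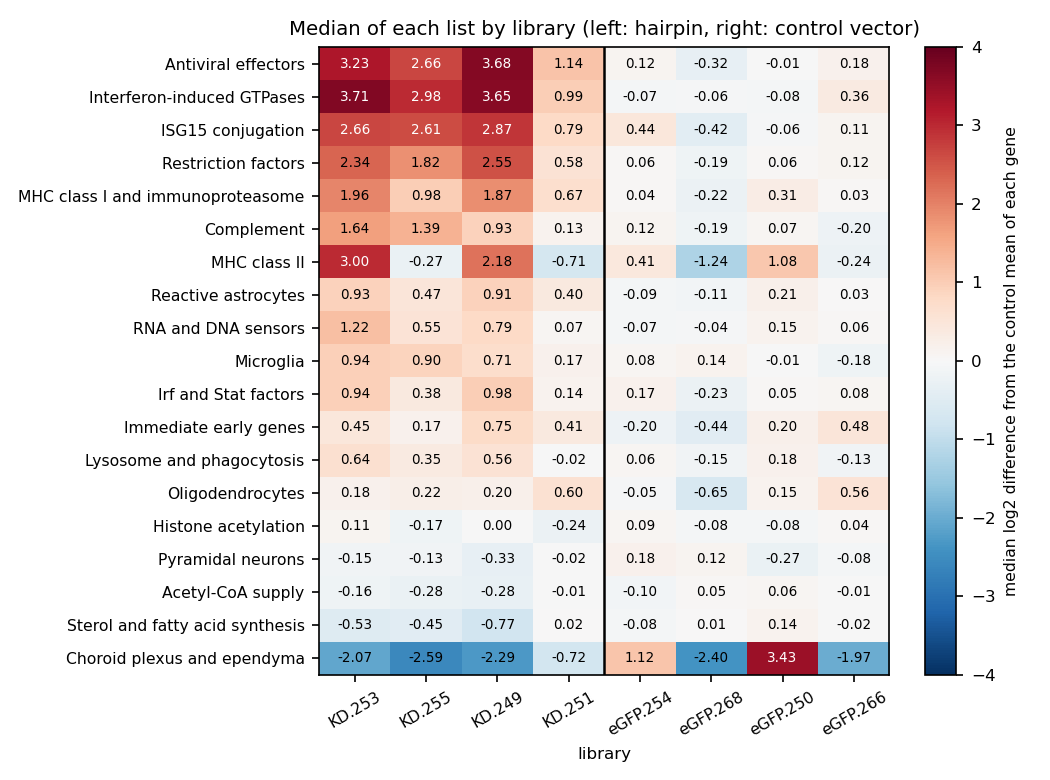
Median over the members of each list of the log2 difference from the control mean of each gene, by library, with hairpin libraries left of the line and control libraries right of it. Antiviral, GTPase and restriction lists stand between 1.82 and 3.71 in KD.253, KD.255 and KD.249 and between 0.58 and 1.14 in KD.251, and the choroid plexus row is high in eGFP.250 and eGFP.254.

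Library KD.251 was read against calls made without it, and the other hairpin libraries likewise. The calls used the same 4 control libraries that the left-out library was then set against. This favours a left-out library lying beyond these controls, so the shares of all genes are no equal baseline. Of the 217 genes that edgeR called higher without KD.251, 126 (58.1%) lay above all 4 control libraries in KD.251, which held for 24.8% of all tested genes. The median of those 217 genes in KD.251 was 0.0897 of the difference that the other 3 hairpin libraries showed. KD.255, the library with fewest reads, lay above all controls in 86 of the 96 genes (89.6%) called higher without it, against 26.6% of all genes. KD.253 did so in 17 of 17 genes (18.8% of all genes) and KD.249 in 27 of 27 (22.0%). These lists differ in length and members, so the percentages of different libraries are not on equal terms. The 17 genes are the core given above, and in each of them KD.251 also lay above all controls. The median share of the difference, each over its own list, was 0.718 in KD.255, 1.46 in KD.253 and 1.69 in KD.249. Of the 21 genes called lower without KD.251, it lay below all controls in 13 (61.9%, against 24.9% of all genes). The smaller differences of KD.251 thus went with its Acss2 value near the controls and its low T and NK cell sum, and their part in each other was not tested.

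In the lower direction edgeR called 6 genes and limma none. All 6 had the 4 hairpin libraries below the 4 control libraries, which held for 1.98% of all tested genes. The 6 were called on these same libraries, which favours such a separation, so the share of all genes is no equal baseline. Slc6a7, the brain proline transporter of glutamatergic terminals (chromosome 18, 60995380 to 61014222, minus strand), had 129, 156, 87.0 and 107 in hairpin libraries, against 198, 236, 233 and 208 in control libraries (-0.90, SE 0.18, edgeR adjusted p = 0.0252). Aifm3, an apoptosis-inducing factor homologue (chromosome 16, 17489611 to 17507485, plus strand), had 167, 156, 198 and 213 in hairpin against 306, 267.9, 349 and 310 in control libraries (-0.75, SE 0.13, edgeR adjusted p = 0.0275). Dnm3, a dynamin of synapses (chromosome 1, 161982453 to 162478034, minus strand), had 305, 389, 298 and 441 in hairpin against 485, 683, 784 and 679 in control libraries (-0.87, SE 0.18, edgeR adjusted p = 0.0352). In these 3 genes KD.251 lay below all controls, as the other hairpin libraries did. Flrt1, an adhesion protein of the FLRT family, had 63.9, 15.6, 56.3 and 51.9 in hairpin against 119, 114, 146 and 109 in control libraries (-1.52, SE 0.38, edgeR adjusted p = 0.0352), with 1 read in KD.255. Fdft1, squalene synthase, had 164, 202, 195 and 291 in hairpin against 315, 322, 381 and 422 in control libraries (-0.78, SE 0.16, edgeR adjusted p = 0.0413). Wbscr27 had 15.8, 0, 20.5 and 26.0 in hairpin against 33.7, 45.7, 68.8 and 50.7 in control libraries (edgeR adjusted p = 0.0477), and its 0 in KD.255 allows up to 46.7. All 6 were also called lower by DESeq2 and by voom with quality weights. Without single libraries edgeR called Slc6a7 in 4 of 8 sets (lost without KD.253, KD.249, eGFP.268 or eGFP.250), Dnm3 in 3, Aifm3, Flrt1 and Wbscr27 in 2 each and Fdft1 in 1 (without KD.251). Over all genes edgeR called 0 lower without KD.253, without KD.249 or without eGFP.250, 2 without eGFP.268, 3 without KD.255, 21 without KD.251 and 44 without eGFP.266.

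**Figure D5:**
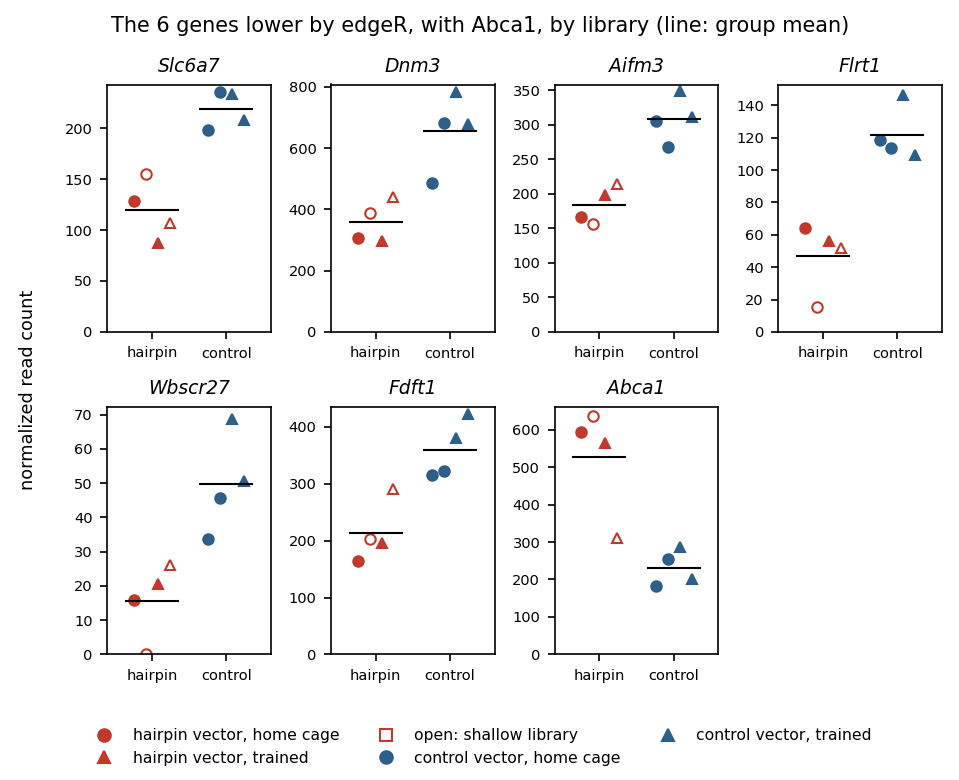
Normalized read count (linear axis from 0) of the 6 genes that edgeR called lower, with Abca1, in hairpin (left, red) and control (right, blue) libraries, with circles for home-cage and triangles for trained mice, open symbols for the shallow libraries and a line at the group mean. In the first 6 genes all hairpin points lie below all control points, and in Abca1 they lie above.

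Genes of sterol and fatty acid synthesis, which neurons and astrocytes use to make cholesterol from acetyl-CoA, had negative differences in 30 of 35 tested members, against 55.7% of all genes, with a median of -0.47. edgeR called 1 lower, Fdft1, and 1 higher, Abca1, against 0.0473% and 0.915% of all tested genes, and limma called none. DESeq2 called 2 lower and voom 12, against 0.237% and 0.931% of all tested genes. At an unadjusted p under 0.05 limma had 12 of the 35 lower and edgeR 16, against 319 and 449 of all 12681 tested genes. Sqle, squalene epoxidase, had 84.4, 46.7, 72.7 and 153 in hairpin against 149, 157, 173 and 147 in control libraries, so that KD.251 lay within the controls (edgeR adjusted p = 0.301). Abca1, the exporter of cholesterol to apolipoproteins (chromosome 4, 53030787 to 53159895, minus strand), had 594, 638, 565 and 312 in hairpin against 181, 255.02, 286 and 201 in control libraries and rose by edgeR (1.16, SE 0.24, adjusted p = 0.0275). Abca1 and Fdft1 thus stood on opposite sides of the controls. The median of the list was -0.53, -0.45, -0.77 and 0.02 in the hairpin libraries and between -0.08 and 0.14 in control libraries. Abca1 kept its call without KD.251 or without eGFP.250 and lost it in the other 6 sets, and without KD.251 edgeR called 6 of the 35 lower.

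Acetyl-CoA supply is the route to which Acss2 belongs. Of its 22 tested genes limma and edgeR called none, and 18 had negative differences, against 55.7% of all tested genes (median -0.18). At an unadjusted p under 0.05, 2 were lower by limma and 4 by edgeR, against 319 and 449 of all 12681 tested genes. DESeq2 and voom called 1 lower each, against 0.237% and 0.931% of all tested genes. Acot7, a brain acyl-CoA thioesterase, had 762, 622, 617 and 733 in hairpin libraries, against 1013, 870, 822 and 884 in control libraries, without overlap (-0.39, 95% interval -0.68 to -0.10, limma adjusted p = 0.697, edgeR 0.450). Slc25a1, the mitochondrial citrate carrier, had 46.1, 46.7, 34.3 and 46.2 in hairpin against 68.0, 44.4, 70.8 and 62.2 in control libraries, which overlapped (-0.48, 95% interval -1.02 to 0.06). Oxct1, which activates ketone bodies, had 1190, 1353, 1399 and 1748 in hairpin against 1518, 1704, 1685 and 1787 in control libraries (-0.25, 95% interval -0.53 to 0.04). Acss2 was the member with the smallest limma p. Histone acetylation genes, 32 in all, had a median of -0.03 and none called by limma, edgeR, DESeq2 or voom (1 higher and 1 lower by limma at an unadjusted p under 0.05). The deacetylase Hdac11 had 307, 280, 236 and 265 in hairpin against 382, 338, 452 and 348 in control libraries, without overlap (-0.48, 95% interval -0.81 to -0.14, edgeR adjusted p = 0.326). The acetyltransferase Ep300 had 1074, 933, 847 and 764 in hairpin against 856, 724, 780 and 686 in control libraries (0.24, 95% interval -0.04 to 0.53). These intervals are for single genes, without adjustment.

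Neuronal lists had few or no called genes. The 22 pyramidal neuron markers had a median of -0.17 (-0.34 in home-cage and -0.0002 in trained mice) with 19 negative, against 55.7% of all tested genes. The 20 inhibitory neuron markers had a median of -0.16 and the 25 glutamate receptor genes -0.09. No gene of these lists was called by limma, edgeR or DESeq2. voom called 2 pyramidal markers lower, against 0.931% of all tested genes. At an unadjusted p under 0.05 limma had 2 pyramidal markers lower, 1 inhibitory marker higher and 1 receptor lower. Of all 12681 tested genes it had 319 lower and 390 higher. Syp, the synaptic vesicle protein synaptophysin, had 7647, 6828, 5742 and 6176 in hairpin libraries, against 9034, 8614, 8547 and 8464 in control libraries, without overlap (-0.40, 95% interval -0.67 to -0.13, limma adjusted p = 0.572, edgeR 0.408). Stx1a, a syntaxin of the release machinery, had 142, 202, 206 and 162 in hairpin against 228, 232, 256 and 369 in control libraries, also without overlap (edgeR adjusted p = 0.173). Of 25 presynaptic genes edgeR called 1, Slc6a7, lower, and voom 4, against 0.0473% and 0.931% of all tested genes (median -0.16). Gria2, the subunit that makes AMPA receptors impermeable to calcium, had 7462, 8383, 7954 and 8591 in hairpin against 6121, 8777, 5890 and 7148 in control libraries (0.23, 95% interval -0.11 to 0.57). The 15 dentate granule markers had a median of 0.16 (-0.42 in home-cage and 0.76 in trained mice), with the lowest library medians in KD.255 (-0.56) and eGFP.250 (-0.82), and Neurod1, Prox1 and Pdzd2 of that list overlapped between the vectors. The 39 respiratory chain and ATP synthase genes had a median of -0.20 with 36 negative, against 55.7% of all tested genes. None was called by the 4 tools (1 lower by limma at an unadjusted p under 0.05). Their library medians were -0.32, -0.20, -0.34 and 0.10 in hairpin libraries and between -0.11 and 0.14 in control libraries.

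Immediate early genes, transcribed within minutes of neuronal activity, had 29 of 32 tested members with a positive difference (median 0.45). None was called by limma or edgeR. At an unadjusted p under 0.05 these had 11 and 13 of the 32 higher, against 390 and 547 of all 12681 tested genes. DESeq2 called 2 and voom 6 of them higher, against 1.3% and 2.88% of all tested genes. A positive difference held for 44.3% of all tested genes. Npas4, an activity factor of neurons, had 117, 124, 118 and 86.5 in hairpin libraries, against 66.3, 51.9, 78.6 and 84.7 in control libraries, without overlap (0.67, SE 0.22, edgeR adjusted p = 0.271). Atf3, a stress-responsive factor, had 27.0, 15.6, 30.7 and 23.1 in hairpin against 5.23, 5.32, 6.72 and 14.8 in control libraries (1.55, SE 0.47, edgeR adjusted p = 0.0522). The hairpin value next to the controls is 1 read in KD.255. Egr2 had 68.5, 109, 164 and 51.9 in hairpin against 11.6, 7.54, 82.7 and 61.7 in control libraries, and its hairpin libraries overlapped the trained control libraries. Of 16 p53 target genes edgeR and limma called none (median 0.12, with 3 higher by limma at an unadjusted p under 0.05). DESeq2 called 1 of them higher and voom 2, against 1.3% and 2.88% of all tested genes. Cdkn1a, the cell cycle inhibitor p21, had 56.7, 77.8, 90.6 and 37.5 in hairpin against 20.9, 16.4, 36.2 and 24.9 in control libraries (1.36, SE 0.35, edgeR adjusted p = 0.0522). Of 16 genes that process small RNAs, which a hairpin passes through, limma, edgeR and DESeq2 called none. With voom 1 was called higher, against 2.88% of all tested genes. The median of these 16 was 0.06, with 2 higher by limma at an unadjusted p under 0.05. Tnrc6b, a scaffold of the silencing complex, had 1161, 1026, 1121 and 940 in hairpin against 700, 882, 809 and 786 in control libraries, without overlap (0.42, 95% interval 0.13 to 0.71, edgeR adjusted p = 0.304). Oligodendrocyte markers had a median of 0.32 over 18 genes, and the iron carrier Trf, the 1 called by edgeR, had 1198, 793, 1569 and 1287 in hairpin against 484, 406, 1022 and 877 in control libraries, which overlapped (edgeR adjusted p = 0.0365). It was called without KD.251 or without eGFP.250 and in none of the other 6 sets. Of all tested genes edgeR called 0.915% higher.

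Whether the vector difference depended on training was tested with an interaction term. limma, edgeR and DESeq2 called 0 genes each, with 112, 98 and 52 of 12681 at an unadjusted p under 0.05. Without KD.253 limma called 710 genes, a set in which 1 hairpin library, the shallow KD.255, remained for home-cage mice, and 0 without any other library. List medians were higher in home-cage than in trained mice for antiviral effectors (3.09 and 2.38), GTPases (3.41 and 2.05), restriction factors (2.11 and 1.51) and class I genes (1.49 and 1.15). The difference between the training states was not tested for lists, and KD.251, the library with smaller differences, is a trained one.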

How the data were processed

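Per the labels' protocols, ScriptSeq v2 chemistry turned poly(A)+ RNA into sequencing libraries, which were read on a NextSeq 500 instrument. Per the submitters' processing notes the tools were bcl2fastq 02.14.01.07, STAR 2.3.0, HTSeq 0.6.1, DESeq and bedtools, and the build was mm10. No annotation or strand setting is given in the sources used here, so overlapping and antisense genes cannot be told apart. The authors deposited a normalized signal per gene and library. Each value was a whole multiple of the smallest value of its library (tolerance 1e-06, 100% of values), so whole reads were recovered. Between 16.4% and 20.3% of reads fell in no gene, and the 5 summary entries stayed out.

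limma 3.58.1 (R 4.3.3, intensity trend) was fitted to log2(normalized read count + 1) with vector and training, for genes with a mean of at least 10. It is the main test because the unit is a normalized one. Differences are hairpin minus control on that scale, which understates those of low genes, and adjusted p-values are Benjamini-Hochberg over 12681 genes. The filter mean is over all 8 libraries, so a gene low in control libraries could enter through its hairpin values alone. This can raise the called share, the share of positive differences and the median of a gene list. Further named examples are Isg15, Irf7, Ifi204, Usp18, Nlrc5 and Psmb8, with control means of 4.53, 7.15, 2.90, 2.35, 6.31 and 9.87. edgeR 4.0.16 (quasi-likelihood), DESeq2 1.42.0 and voom with quality weights were run on the recovered reads, and the scripts were tested on simulated data. Reads carry no molecular identifiers, so the floor of 3 reads for a count of 0 covers counting error only. p-values measure the spread between libraries, which may be technical.

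The comparison and the 38 gene lists were chosen with earlier results of these data known, so lists are described by counts and medians without a test of their own. The genes named were Acss2, all called by limma, in each direction the 10 smallest edgeR p among called genes whose vectors did not overlap, the 5 most abundant called by edgeR, and up to 4 members of each list with the smallest limma p. Some genes that this rule picks are not reported here, and other genes named were chosen after their values were seen. Gene coordinates are from GENCODE M21 (GRCm38) and promoters from RefSeq. Alternatives were other tests, pseudocounts, filters, scalings, covariates and library sets.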

Additional observations from a re-analysis of the deposited data

Results flagged for a closer look

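In 142 groups of 4 libraries, covering both vectors for 71 genes, 6 groups held a library whose gap to the nearest of the others exceeded Dixon's 95% critical value, which chance does in about 1 in 20 groups. In hairpin libraries, Irf7 was lowest in KD.251 at 34.6 normalized read counts, against 186 to 195 in the other 3. Ccl5 was highest in KD.249 at 129, against 107 to 110, and Slc25a1 was lowest there at 34.3, against 46.1 to 46.7. Tlr3 was highest in KD.253 at 177, against 133 to 140. In control libraries, Atf3 was highest in eGFP.266 at 14.8, against 5.23 to 6.72, and Ddx58 was highest in eGFP.250 at 39.3, against 29.3 to 30.8.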

How the results depend on the processing

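The limma count of 13 became 122 with edgeR, 195 with DESeq2 and 483 with voom and quality weights, and 212 (188 higher, 24 lower) without both shallow hairpin libraries. It was 0 with only the libraries numbered up to KD.255 (555 at an unadjusted p under 0.05) and 0 with the set of libraries as a term beside training (675 at an unadjusted p under 0.05), a setting added after the data were seen, and all 13 lost their calls in both, at log2 differences of 2.09 to 5.86 (limma adjusted p from 0.0672 to 0.287), while edgeR called all 13 in both. Without single libraries it ran from 1 to 100, and between 1 and 13 of the 13 genes remained. Other pseudocounts, filters, scalings and covariates gave 12 to 16. The edgeR count of 122 became 232 without both shallow libraries and ran from 17 to 238 without single libraries. With libraries up to KD.255 edgeR called 85 higher (82 of the 116 among them) and 79 lower, and with the set term 56 and 57 (55 of the 122 among them). The log2 difference of Acss2 passed at -1.27 (DESeq2), -1.36 (voom), -1.49 (without both shallow libraries) and -1.53 (edgeR without them). Without KD.251, the hairpin library highest in Acss2, it also passed at -1.67 by limma (adjusted p = 0.0433) and at -1.56 by edgeR. It ran from -1.67 to -1.16 by limma and from -1.56 to -1.05 by edgeR without single libraries. The interaction count ran from 0 to 710 without single libraries. For 70 other genes that the rule above picked, 1710 of 2228 values kept direction and side of the threshold, 89 lost and 429 gained a call, and 0 reversed. These genes were picked by calls or small p-values in the same data, which favours a kept direction. Genes named after their values were seen are not among them. Of 37 list medians, 22 kept their sign in every alternative. No paired analysis was possible because the deposited columns carry no replicate numbers. The cause of these shifts was not tested. In KD.255 a gene needs 46.7 normalized read counts to exceed the limit that a count of 0 allows, which limits all statements on genes of low abundance there.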

Other observations

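Of the 116 genes that edgeR called higher, 84 were in a gene list, and the genes outside the lists named here were chosen after their values were seen. Several are receptors of macrophages, microglia and lymphocytes. Clec7a, the receptor dectin-1 for fungal glucans, had 73.8, 93.3, 72.7 and 14.4 normalized read counts in the hairpin libraries (home-cage KD.253 and KD.255, trained KD.249 and KD.251), against 8.14, 4.44, 4.14 and 5.74 in control libraries eGFP.254, eGFP.268, eGFP.250 and eGFP.266 (edgeR adjusted p = 0.00252). Cd274, the checkpoint ligand PD-L1, had 112, 124, 92.1 and 23.1 in hairpin against 12.8, 11.5, 13.4 and 15.8 in control libraries (edgeR adjusted p = 0.00479). Both were separate between the vectors, lowest in KD.251 among hairpin libraries, and lost their edgeR call without KD.253 (Cd274 also without KD.249). Ly9, a receptor of lymphocytes, had 36.2, 46.7, 34.3 and 8.65 in hairpin against 2.91, 0.887, 3.62 and 2.87 in control libraries (edgeR adjusted p = 0.00483, lost without KD.253 or without KD.249). Cybb, the catalytic subunit of the phagocyte oxidase, had 85.7, 0, 92.6 and 17.3 in hairpin against 6.40, 4.44, 9.31 and 4.78 in control libraries, with no read in KD.255 and a call that was lost without KD.253 or without KD.249 (edgeR adjusted p = 0.00772).

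Jchain, the chain that joins immunoglobulin A and M and marks plasma cells, had 82.4, 0, 42.0 and 2.88 in hairpin libraries, against 2.33, 2.66, 0.517 and 3.83 in control libraries. It was high in the deep hairpin libraries KD.253 and KD.249 and overlapped the controls in both shallow ones (edgeR adjusted p = 0.0112, lost without KD.253, KD.249, eGFP.254 or eGFP.268). Its KD.251 value is 1 read.

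With only the libraries numbered up to KD.255, edgeR called 79 genes lower with the hairpin vector, and 1 of these was among the 6 lower genes of the comparison of all libraries. Of the 79, 64 were at least 3-fold higher in eGFP.250 than in both eGFP.266 and eGFP.268, and 8 were choroid plexus and ependyma markers. Ttr, the transthyretin of choroid plexus, had 341, 482, 173 and 1768 in hairpin libraries, against 15080, 133, 57479 and 620 in control libraries. The groups overlapped, with eGFP.250 and eGFP.254 far above the other 6 libraries.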
